A study of Saccharomyces cerevisiae with 4 samples.

Results

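Amino acid permease genes were followed in a budding yeast (Saccharomyces cerevisiae) strain in which the protein Ssl2 can be removed from the nucleus. The 10 genes were AGP1, GNP1, BAP2, BAP3, TAT1, TAT2, CAN1, LYP1, HIP1 and DIP5. They were picked by systematic name from the deposited transcript annotation, a rule that uses no read counts, but the set was chosen with earlier results of these data known. All 10 were found among its 6030 features, of which 4928 are transcripts of open reading frames. Labelled RNA was compared between 2 libraries with rapamycin (with rapa, replicates 1 and 2) and 2 libraries without it (no rapa, replicates 1 and 2). All 4 came from one genotype, Y40343 Ssl2-FRB::kanMX6, grown at 30 C in rich glucose medium (YPD) and labelled with 5 mM 4-thiouracil for 6 min, so the counts weigh RNA made during or shortly before the label. Ssl2 is the DNA translocase of TFIIH, the general transcription factor that opens promoters for RNA polymerase II, and its FRB tag lets rapamycin tie it to an anchor that carries it out to the cytoplasm. The labels give neither the rapamycin dose nor the time of exposure, nor whether the strain's own rapamycin target, the TORC1 kinase, is insensitive to the drug. There was no rapamycin-treated strain without the FRB tag among the samples, so loss of Ssl2 and other effects of rapamycin cannot be told apart. Nothing in the labels ties a replicate to its own culture, and the spread that p-values are based on may therefore be technical.

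Amino acid permeases are proton symporters of the plasma membrane, with many membrane-spanning helices, that bring amino acids into the cell. Yeast makes several with overlapping substrates. Many are transcribed in response to external amino acids through the SPS pathway, in which the membrane sensor Ssy1, with Ptr3 and Ssy5, releases the transcription factors Stp1 and Stp2 by proteolysis. Others are known targets of the GATA factors Gln3 and Gat1 and of Gcn4, which act on nitrogen supply and amino acid starvation. The proteins leave the endoplasmic reticulum with the help of Shr3 and are removed from the surface by the ubiquitin ligase Rsp5 with its arrestin adaptors.

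Reads on features numbered 11441998 and 12685769 in the with rapa libraries, against 32435994 and 29318499 in the no rapa libraries. Counts were tested with edgeR's quasi-likelihood test, scaled by TMM factors, with p-values adjusted over 5707 tested features by the Benjamini-Hochberg method and a threshold of 0.05. Levels are given as CPM, a feature's reads in proportion to its library's TMM-scaled total. A TMM-scaled change is relative to the bulk of genes: the median log2 fold change of all tested features was -0.03, and a change shared by most genes would not be seen.

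With rapamycin, 8 of the 10 permease genes were lower, 0 were higher and 2, TAT1 and DIP5, did not pass the threshold. Among all tested features 26.7% were lower and 19.3% higher, and among open reading frames 30.2% were lower and 17.5% higher. The median log2 fold change of the permease genes was -1.24, against -0.14 for open reading frames. The 10 genes were chosen with earlier results of these data known, so these shares are no test of the set. BAP3, which encodes a transporter of branched-chain amino acids, had the largest fall, to 20.7% of its no rapa level on the fitted scale. CAN1, the arginine permease gene, fell to 24.7% of its no rapa level. All 10 genes passed the filter on low counts, with between 725 and 47274 reads in each library. In 9 of the 10 genes both with rapa libraries were below both no rapa libraries, against 40.1% of all tested features. Scaling by upper-quartile factors moved the median of all features to 0.28 and gave 1706 features higher and 961 lower, against 1101 higher and 1522 lower with TMM. On that scale 8 permease genes were still lower and 1, DIP5, was called higher.

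**Figure D1:**
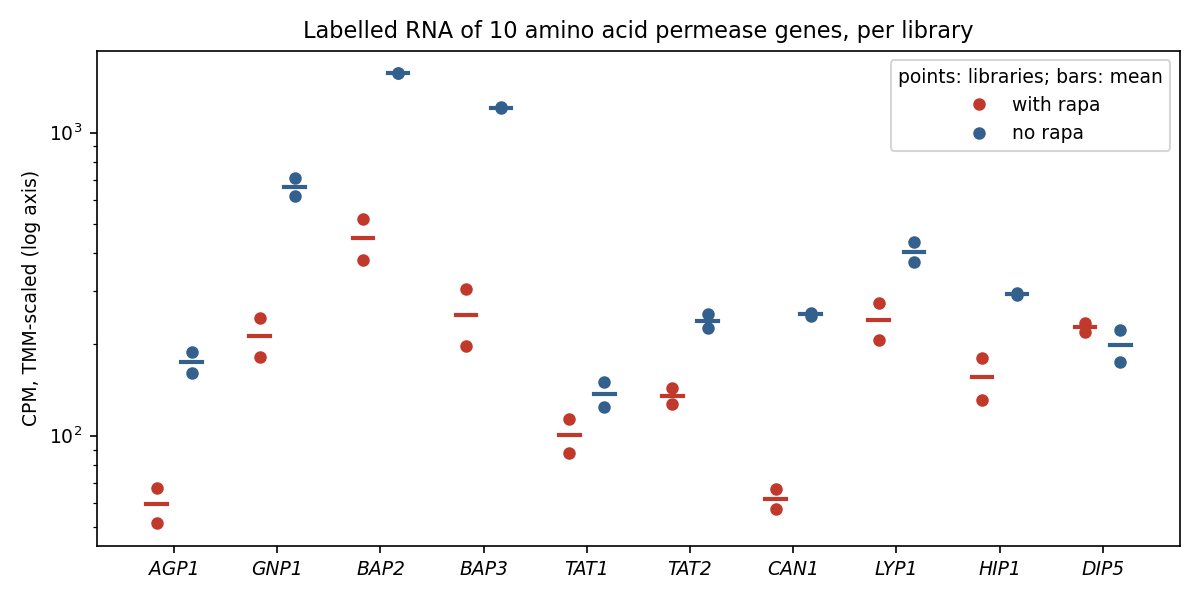
Labelled RNA of the 10 permease genes in CPM on a log axis, with rapa in red and no rapa in blue; points are libraries and bars the mean of 2. The with rapa points lie below the no rapa points in 9 genes, and the groups overlap in DIP5.

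The bases upstream of 7 of these genes are printed, among them both extremes of the response, BAP3 and DIP5. The windows of AGP1, TAT2 and HIP1 were also searched but are not printed. Each window is the 300 bases before the deposited transcript start, read from the R64 genome on the gene's own strand, 5′ to 3′. Capitals mark CGGC, the core letters of Stp1 and Stp2 sites, TGACTC, those of Gcn4, GATAAG, those of GATA factors, and the TATA letters TATAAAAA, TATAAAAG, TATAAATA, TATAAATG, TATATAAA, TATATAAG, TATATATA and TATATATG, each searched on both strands.
BAP2, chrII:375730-376029, minus strand: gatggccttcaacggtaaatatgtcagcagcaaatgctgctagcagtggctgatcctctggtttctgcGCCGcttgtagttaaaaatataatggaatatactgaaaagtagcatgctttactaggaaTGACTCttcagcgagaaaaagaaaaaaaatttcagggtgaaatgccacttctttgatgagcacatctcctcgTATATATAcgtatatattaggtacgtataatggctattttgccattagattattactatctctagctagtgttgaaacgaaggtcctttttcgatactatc
BAP3, chrIV:550667-550966, minus strand: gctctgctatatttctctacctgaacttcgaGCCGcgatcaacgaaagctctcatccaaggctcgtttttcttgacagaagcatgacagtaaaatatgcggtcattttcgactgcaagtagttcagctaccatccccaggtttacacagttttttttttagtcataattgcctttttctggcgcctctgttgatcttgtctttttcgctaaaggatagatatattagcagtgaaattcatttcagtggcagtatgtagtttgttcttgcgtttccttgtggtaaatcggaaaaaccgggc
TAT1, chrII:378539-378838, minus strand: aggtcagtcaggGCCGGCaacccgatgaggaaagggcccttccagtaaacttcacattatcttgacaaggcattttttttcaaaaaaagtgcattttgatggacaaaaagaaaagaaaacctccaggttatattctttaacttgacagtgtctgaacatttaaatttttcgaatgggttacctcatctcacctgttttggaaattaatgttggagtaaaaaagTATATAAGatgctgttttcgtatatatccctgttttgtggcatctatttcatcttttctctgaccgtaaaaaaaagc
GNP1, chrIV:1468489-1468788, minus strand: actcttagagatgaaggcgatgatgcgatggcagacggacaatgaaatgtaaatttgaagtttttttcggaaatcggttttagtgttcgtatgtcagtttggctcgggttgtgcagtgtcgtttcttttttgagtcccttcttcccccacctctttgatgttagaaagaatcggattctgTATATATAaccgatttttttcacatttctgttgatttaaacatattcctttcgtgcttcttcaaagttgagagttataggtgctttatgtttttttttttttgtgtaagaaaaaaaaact
CAN1, chrV:33698-33997, minus strand: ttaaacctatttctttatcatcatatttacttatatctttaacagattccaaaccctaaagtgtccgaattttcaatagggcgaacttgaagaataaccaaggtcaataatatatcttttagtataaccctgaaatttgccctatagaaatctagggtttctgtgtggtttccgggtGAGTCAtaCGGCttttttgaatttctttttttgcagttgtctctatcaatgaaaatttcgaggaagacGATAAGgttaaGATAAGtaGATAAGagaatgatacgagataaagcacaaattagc
LYP1, chrXIV:138195-138494, plus strand: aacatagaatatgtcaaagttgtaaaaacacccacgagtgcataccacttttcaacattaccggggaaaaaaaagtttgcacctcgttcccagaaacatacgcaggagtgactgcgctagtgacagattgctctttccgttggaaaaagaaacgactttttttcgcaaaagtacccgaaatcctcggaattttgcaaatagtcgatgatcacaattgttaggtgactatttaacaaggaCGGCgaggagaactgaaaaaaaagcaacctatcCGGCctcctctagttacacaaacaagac
DIP5, chrXVI:40620-40919, plus strand: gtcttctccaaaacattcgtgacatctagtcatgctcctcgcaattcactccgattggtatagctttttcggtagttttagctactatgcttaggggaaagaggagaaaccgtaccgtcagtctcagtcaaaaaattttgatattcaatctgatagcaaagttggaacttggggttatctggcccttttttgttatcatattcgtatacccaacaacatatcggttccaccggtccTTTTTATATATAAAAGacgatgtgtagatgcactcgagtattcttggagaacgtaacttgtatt

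CGGC stood in 7 of the 10 permease windows, against 52.4% of the 4928 windows of open reading frame transcripts. TGACTC stood in 3, those of BAP2, CAN1 and HIP1, against 8.48% of all windows. GATAAG stood in 2, AGP1 with 1 copy and CAN1 with 3, against 14.4%, and only 1.44% of all windows held 2 or more copies. TATA letters stood in 5, those of AGP1, GNP1, BAP2, TAT1 and DIP5, against 40.9%. In the CAN1 window the 3 GATAAG copies begin 55, 44 and 36 bases before the transcript start, and TGACTC begins 123 bases before it on the opposite strand. In the DIP5 window 5 TATA matches overlap one another, the farthest beginning 64 bases before the start. The overlapping pair of CGGC matches in the TAT1 window is a single palindrome, GCCGGC. No window held the spaced repeat CGGCNNNNNNGCCG, found in 0.0406% of all windows, or the Leu3 letters CCGNNNNCGG, found in 2.11%. These matches describe letters in the windows and do not show binding.

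AGP1 and GNP1 encode closely related permeases of broad substrate range, GNP1 being best known for glutamine, and both were lower by nearly the same amount. AGP1 (YCL025C, chromosome III, 75936 to 77945, R64, minus strand) measured 67.2 and 51.4 CPM in with rapa replicates 1 and 2, against 189 and 161 CPM in no rapa replicates 1 and 2. Its log2 fold change was -1.56 ± 0.19 (SE; edgeR adjusted p = 4.68e-05). GNP1 (YDR508C, chromosome IV, 1466436 to 1468488, minus strand) measured 245 and 181 CPM in the with rapa libraries, against 707 and 618 CPM in the no rapa libraries. Its log2 fold change was -1.64 ± 0.21 (edgeR adjusted p = 7.67e-05). The groups do not overlap in either gene. AGP1 reads numbered 0.274 and 0.284 per GNP1 read with rapamycin, against 0.267 and 0.260 without it.

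BAP2 and BAP3, the permease genes for leucine, isoleucine and valine, had the highest mean levels of the 10 in both groups and both fell. BAP2 (YBR068C, chromosome II, 373642 to 375729, minus strand) measured 519 and 380 CPM in the with rapa libraries, against 1570 and 1568 CPM in the no rapa libraries, a log2 fold change of -1.80 ± 0.25 (SE; edgeR adjusted p = 0.000107). BAP3 (YDR046C, chromosome IV, 548680 to 550666, minus strand) measured 304 and 197 CPM in the with rapa libraries, against 1211 and 1206 CPM in the no rapa libraries, a log2 fold change of -2.27 ± 0.25 (edgeR adjusted p = 2.80e-05). No rapa replicates were nearly equal in both genes, and with rapa replicate 1 was above replicate 2 in each. The ratio of BAP2 to BAP3 reads was 1.71 and 1.93 with rapamycin, against 1.30 and 1.30 without it, and the groups do not overlap. Together they held 36.7% ± 2.16 of the summed permease CPM with rapamycin, against 54.1% ± 1.60 without it (SD, n = 2 each).

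TAT1 and TAT2 carry aromatic amino acids, TAT1 for tyrosine and tryptophan among others and TAT2 with high affinity for tryptophan, and of the pair only TAT2 passed the threshold. TAT2 (YOL020W, chromosome XV, 286106 to 288064, plus strand) measured 143 and 127 CPM in the with rapa libraries, against 227 and 251 CPM in the no rapa libraries, a log2 fold change of -0.82 ± 0.17 (SE; edgeR adjusted p = 0.00164). TAT1 (YBR069C, chromosome II, 376412 to 378538, minus strand) measured 113 and 87.5 CPM in the with rapa libraries, against 150 and 124 CPM in the no rapa libraries. Its groups do not overlap, but its log2 fold change of -0.45 ± 0.18 did not pass (edgeR adjusted p = 0.0627). It passed as lower without with rapa replicate 1 (-0.68, edgeR adjusted p = 0.00136). TAT1 reads per TAT2 read numbered 0.792 and 0.691 with rapamycin, against 0.663 and 0.494 without it, and whether the 2 genes respond differently was not tested.

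CAN1 and LYP1 encode the permeases for arginine and lysine, and both were lower, CAN1 by the larger fold. CAN1 (YEL063C, chromosome V, 31403 to 33697, minus strand) measured 66.7 and 57.3 CPM in the with rapa libraries, against 249 and 253 CPM in the no rapa libraries, a log2 fold change of -2.02 ± 0.17 (SE; edgeR adjusted p = 6.26e-06). LYP1 (YNL268W, chromosome XIV, 138495 to 140518, plus strand) measured 275 and 206 CPM in the with rapa libraries, against 436 and 374 CPM in the no rapa libraries, a log2 fold change of -0.75 ± 0.20 (edgeR adjusted p = 0.00809). LYP1 no longer passed without no rapa replicate 1 (-0.65, edgeR adjusted p = 0.0873). CAN1 reads per LYP1 read numbered 0.242 and 0.277 with rapamycin, against 0.571 and 0.677 without it. That ratio, which no library scaling can move, was 0.417 times its no rapa value, and the groups do not overlap. With 2 libraries against 2, an exact permutation test cannot pass 0.05, so no p is given for the ratios. The groups do not overlap in any pair compared here, AGP1/GNP1 included, so non-overlap does not set BAP2/BAP3 or CAN1/LYP1 apart.

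HIP1, the histidine permease gene, was lower, and DIP5, which encodes the permease for aspartate and glutamate, was the one gene whose groups overlap. HIP1 (YGR191W, chromosome VII, 880191 to 882387, plus strand) measured 180 and 131 CPM in the with rapa libraries, against 290.4 and 295 CPM in the no rapa libraries, a log2 fold change of -0.91 ± 0.19 (SE; edgeR adjusted p = 0.00188). DIP5 (YPL265W, chromosome XVI, 40920 to 43148, plus strand) measured 236 and 220 CPM in the with rapa libraries, against 223 and 175 CPM in the no rapa libraries. Its log2 fold change was 0.19 ± 0.18 (edgeR adjusted p = 0.389), with a 95% interval of -0.19 to 0.58 before any adjustment. That interval does not reach the fitted value of any of the 8 genes that fell, or that of TAT1. The fitted values have intervals of their own (TAT1, -0.85 to -0.05), and whether DIP5 responds differently was not tested. DIP5 held 12.2% ± 1.71 of the summed permease CPM with rapamycin, against 3.87% ± 0.55 without it (SD, n = 2 each). The sum itself was lower with rapamycin (mean 1894 CPM, against 5139 CPM without it), so a larger share need not mean more DIP5 RNA.

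**Figure D2:**
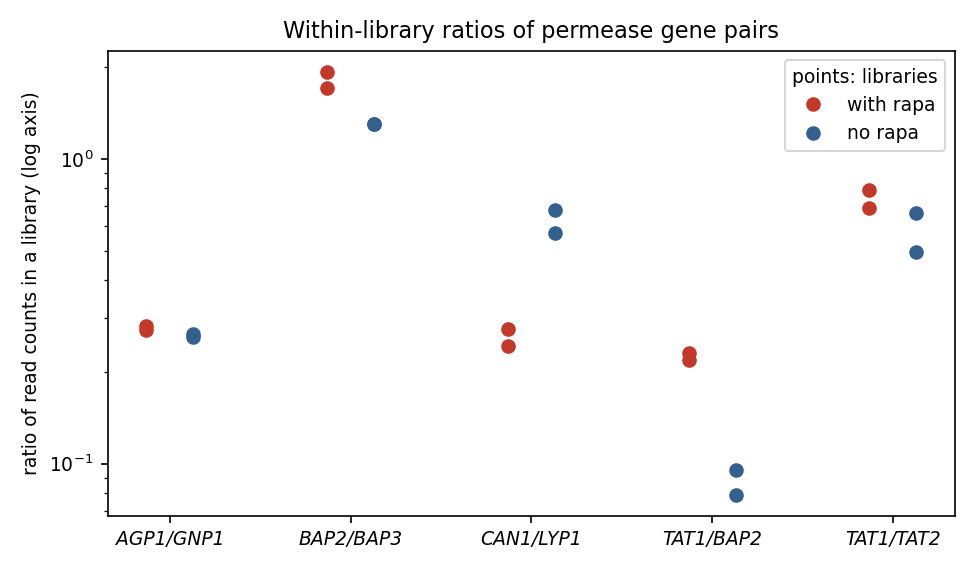
Ratio of read counts of 5 gene pairs within each library, on a log axis, with rapa in red and no rapa in blue; each point is a library. CAN1/LYP1 is lower and TAT1/BAP2 higher with rapamycin, while AGP1/GNP1 stays between 0.260 and 0.284.

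Summed over the 10 genes, labelled permease RNA came to 2150 and 1639 CPM in the with rapa libraries, against 5253 and 5025 CPM in the no rapa libraries. The with rapa mean was 0.369 times the no rapa mean. With rapa replicate 1 was above with rapa replicate 2 in all 10 genes, so the size of each fold change depends on which of these libraries is kept. How many of all features share that order was not counted, so it is not read as a permease trait. Across the fits with 1 library left out, the log2 fold change of BAP3 ran from -2.65 to -1.90, that of CAN1 from -2.16 to -1.82 and that of HIP1 from -1.19 to -0.61.

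The order of levels among the permease genes was compared per length, as CPM per kilobase of the deposited transcript (RPKM). With rapamycin BAP2 was highest at 215 ± 47.1 RPKM (SD, n = 2), followed by BAP3, LYP1, GNP1 and DIP5 at 126 to 102 RPKM, neighbours that overlapped between libraries. HIP1 (70.9 ± 15.8) and TAT2 (68.9 ± 5.98) overlapped each other below them, then came TAT1 (47.3 ± 8.63), and AGP1 (29.5 ± 5.54) and CAN1 (27.0 ± 2.90) overlapped at the bottom. Without rapamycin the order was BAP2 (751 ± 0.79 RPKM), BAP3 (608 ± 1.73), GNP1 (323 ± 30.9), LYP1 (200.1 ± 21.8), HIP1 (133 ± 1.59), TAT2 (122 ± 8.93), CAN1 (109 ± 1.22), DIP5 (89.3 ± 15.4), AGP1 (87.0 ± 9.88) and TAT1 (64.5 ± 8.65), where DIP5 and AGP1 alone overlapped their neighbour. DIP5 thus ranked 5 with rapamycin against 8 without it, and CAN1 ranked 10 against 7.

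**Figure D3:**
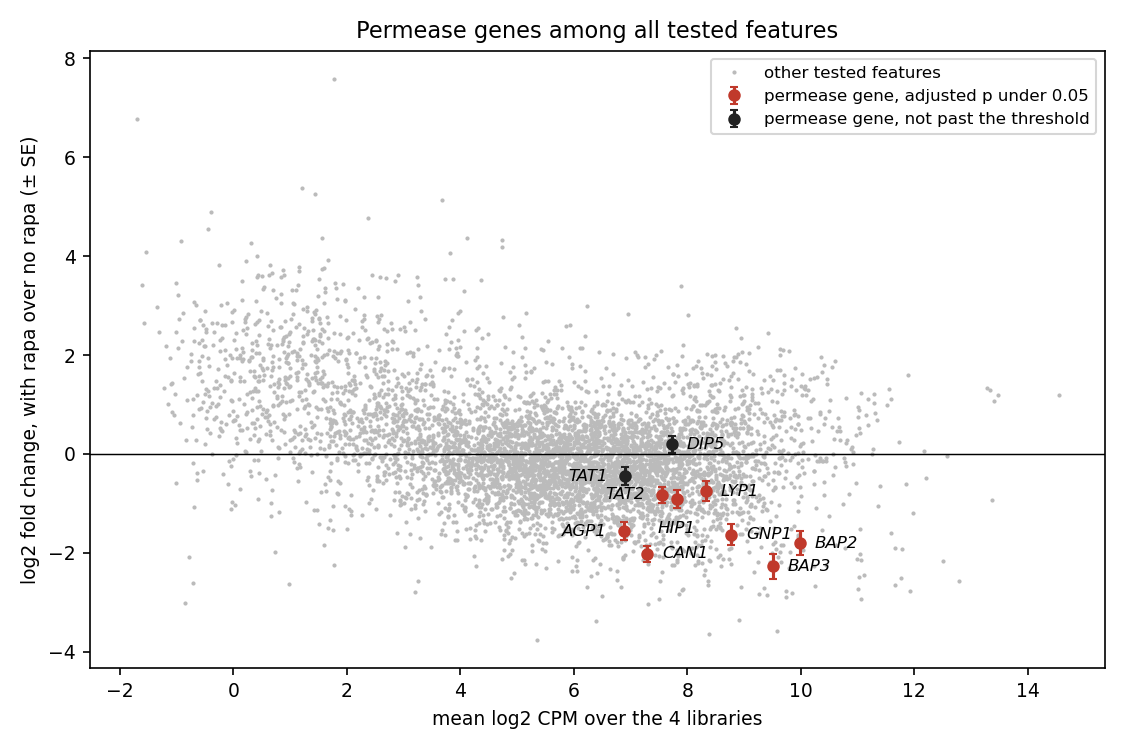
Log2 fold change with rapa over no rapa against mean log2 CPM for all 5707 tested features (grey) and the 10 permease genes with their SE; red genes passed the threshold and black ones did not. The 8 permease genes past the threshold lie below 0, with BAP3 at -2.27, while TAT1 and DIP5 lie within the bulk.

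Across open reading frames the median fold change fell steadily with transcript length and moved unevenly with level, and the permease transcripts are long and well expressed. Their deposited transcripts span 1959 to 2295 bp, and by length 8 of them fall in quintile 4 of 5 of the tested open reading frames and 2 in quintile 5, the longest. The share called lower was 44.2% in quintile 4 and 52.4% in quintile 5, with median log2 fold changes of -0.38 and -0.53. By level, 6 permease genes fall in quintile 4, where 43.1% were lower, and 4 in quintile 5, the highest, where 33.5% were lower. The median log2 fold changes of these level quintiles were -0.31 and -0.07. The part of length and level in the permease values was not tested. BAP3, CAN1, BAP2, GNP1 and AGP1 stood at percentiles 0.929, 1.93, 2.98, 4.07 and 4.77 of the log2 fold changes of all tested features. The other 3 genes that fell stood between percentiles 15.7 and 20.6.

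The permease reading frames are related in sequence, so shared reads were checked. AGP1 and GNP1 had 70.0% identical bases over 1888 aligned, with a longest identical run of 47 bases, BAP2 and BAP3 had 69.3% over 1800, and CAN1 and LYP1 had 67.6% over 1751. In every one of the 10 transcripts, 0 of the windows of 50 bases occurred a second time in the R64 genome on either strand. The read length was not given in the sources used here.

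Neighbouring and overlapping transcripts were measured in the same fit. Their reads, here and in the next paragraph, are raw counts not scaled for the larger no rapa libraries, whereas fold changes are TMM-scaled. TAT1 and BAP2 lie in tandem on chromosome II, with 682 bp between their transcripts, and TAT1 reads per BAP2 read numbered 0.219 and 0.230 with rapamycin, against 0.0957 and 0.0792 without it. TAT1 is the one permease gene covered almost whole by an antisense transcript, XUT_2F-154, a noncoding RNA degraded by Xrn1, which overlaps it over 2037 bp. That transcript had 742 and 722 reads with rapamycin, against 3820 and 3553 without it, and was lower (log2 fold change -1.07 ± 0.18, edgeR adjusted p = 0.000567). The strand setting of the counting is not given in the sources used here. Downstream of BAP2, TIP1 (371965 to 372786) lies wholly inside SUT016 (371346 to 373724) on the opposite strand. TIP1 had 10231 and 11330 reads without rapamycin, against 91 and 77 on SUT016, so reads of this opposite-strand pair were told apart. How cleanly reads of the other overlapping pairs were told apart was not tested. AGP1 shares 752 bp with the antisense XUT_3F-33, which had 53 and 115 reads with rapamycin, against 94 and 59 without it, and did not pass (1.34 ± 0.58, edgeR adjusted p = 0.0777). It passed as higher with upper-quartile factors (1.68, edgeR adjusted p = 0.0447), in DESeq2 (1.40, adjusted p = 0.0424) and without with rapa replicate 1 (1.64, edgeR adjusted p = 0.000801). DIP5 overlaps the convergent gene YPL264C over 129 bp at its end, and YPL264C was higher (1.85 ± 0.29, edgeR adjusted p = 0.000341).

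Upstream of BAP3, the deposited feature YDR048C, on the same strand, ends at the base before the BAP3 transcript begins. It had 243 and 506 raw reads with rapamycin, against 113 and 193 without it, and was higher (log2 fold change 2.49 ± 0.38, edgeR adjusted p = 0.000235) while BAP3 fell. Other upstream neighbours went both ways. YCL021W-A (1.53 ± 0.18), upstream of AGP1, and the sparsely read SUT566 (2.02 ± 0.75), upstream of HIP1, were higher. NPR2 (-0.69 ± 0.18), upstream of CAN1, was lower. DIS3, SMT3, ALP1, ALG14 and SUT804, upstream of TAT2, GNP1, LYP1, TAT1 and DIP5, did not pass, nor did TAT1, upstream of BAP2. Downstream neighbours went both ways. TDH3 (1.30 ± 0.43), downstream of HIP1, and KEL3 (0.93 ± 0.16), downstream of DIP5, were higher. RPC11, downstream of BAP3, and PIK1, downstream of LYP1, did not pass. TIP1 (-1.02 ± 0.18), downstream of BAP2, and TOS7 (-1.91 ± 0.17), downstream of TAT2, were lower. Downstream of AGP1, FRM2, a gene of the nitroreductase family, was lower (-2.88 ± 0.20). Downstream of CAN1, AVT2, of the vacuolar transporter family, was lower (-1.06 ± 0.27) with 130 and 202 reads with rapamycin, against 803 and 821 without it. AVT2 no longer passed without no rapa replicate 1 (-1.11, edgeR adjusted p = 0.0506), without no rapa replicate 2 (-1.04, edgeR adjusted p = 0.0689) or with upper-quartile factors (-0.74, edgeR adjusted p = 0.0625).

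Genes of the SPS pathway were mostly lower. Of 9 tested, 0 were higher, 6 lower and 3 did not pass, with a median log2 fold change of -0.70. For this list and the others, the shares to set beside the counts are 26.7% lower and 19.3% higher among all tested features. Among open reading frames they are 30.2% lower and 17.5% higher. STP2, one of the 2 transcription factors of the pathway, measured 115 and 94.6 CPM with rapamycin, against 232 and 242 CPM without it, a log2 fold change of -1.18 ± 0.17 (SE; edgeR adjusted p = 0.000155). STP1, its partner, measured 166 and 156 CPM with rapamycin, against 165 and 184 CPM without it, and did not pass (-0.11 ± 0.16, edgeR adjusted p = 0.591). DAL81, a transcription factor that acts with Stp1 and Stp2, was lower (-0.88 ± 0.17, edgeR adjusted p = 0.00115), as was YCK2, a casein kinase gene (-0.99 ± 0.19, edgeR adjusted p = 0.00112). SSY1 was not analysed here. With upper-quartile factors, and without no rapa replicate 2, 3 SPS genes were lower.

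Other amino acid and peptide transporter genes of the plasma membrane went both ways. Of 11 tested, 1 was higher, 6 lower and 4 did not pass, with a median of -0.66. GAP1, the general amino acid permease, was the higher one, with 489 and 447 CPM with rapamycin, against 288 and 234 CPM without it (0.84 ± 0.19, edgeR adjusted p = 0.00316). GAP1 no longer passed without no rapa replicate 2 (0.69, edgeR adjusted p = 0.0919). The lower ones included the S-adenosylmethionine permease gene SAM3 (-2.68 ± 0.28), the methionine permease gene MUP1 (-2.44 ± 0.32) and the S-methylmethionine permease gene MMP1 (-1.90 ± 0.24). MUP1 measured 839 and 537 CPM with rapamycin, against 4124 and 3356 CPM without it, and its groups do not overlap. The oligopeptide transporter gene OPT1 also fell (-2.01 ± 0.23).

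Genes that sort permeases and remove them from the membrane were mostly lower, with SHR3 the exception. Of 14 tested, 1 was higher, 9 lower and 4 did not pass (median -0.76). DOA4, a deubiquitinase that recycles ubiquitin from cargo at endosomes, measured 128 and 114 CPM with rapamycin, against 466 and 429 CPM without it (-1.89 ± 0.18, edgeR adjusted p = 1.1e-05). The arrestin genes ECM21 (-1.30 ± 0.19) and ROD1 (-1.20 ± 0.20) and the kinase gene NPR1 (-0.97 ± 0.18), whose product counters the removal of some permeases, were lower. SHR3, the endoplasmic reticulum chaperone of permeases, measured 81.8 and 167 CPM with rapamycin, against 54.2 and 71.6 CPM without it, and was higher (0.99 ± 0.28, edgeR adjusted p = 0.0117). It no longer passed without no rapa replicate 1 (0.79, edgeR adjusted p = 0.0590), and its with rapa libraries lie far apart.

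Eisosome genes, which build the membrane furrows where Can1 and other permeases gather, were lower for 6 of 7 tested, with 0 higher and a median log2 fold change of -1.17. SUR7, a defining membrane protein of that domain, measured 43.0 and 44.3 CPM with rapamycin, against 141 and 174 CPM without it (-1.85 ± 0.18, edgeR adjusted p = 1.2e-05). PUN1 (-1.27 ± 0.20), EIS1 (-1.17 ± 0.18) and NCE102 (-1.12 ± 0.18) were lower too, while PIL1, the core eisosome gene, did not pass (0.25 ± 0.22, edgeR adjusted p = 0.364). PIL1 passed as higher with upper-quartile factors (0.56, edgeR adjusted p = 0.0219) and without with rapa replicate 2 (0.49, edgeR adjusted p = 0.0367).

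Of 8 tested regulators of nitrogen and amino acid genes, 0 were higher, 7 lower and 1 did not pass (median -0.58). PUT3, the activator of proline use, measured 108 and 128 CPM with rapamycin, against 299 and 314 CPM without it (-1.38 ± 0.17, edgeR adjusted p = 6.0e-05). GLN3, a GATA activator, was lower (-1.31 ± 0.18), as was GCN4 (-0.83 ± 0.21), which no longer passed without no rapa replicate 1 (-0.68, edgeR adjusted p = 0.101). Of the 8, 3 were lower with upper-quartile factors and 2 without no rapa replicate 1. The count was 4 without no rapa replicate 2, without with rapa replicate 2 and in DESeq2. Across all 6 lists of connected genes, 40 of 61 tested were lower and 3 higher, with a median of -0.66. The lists named 71 genes, of which 61 were found in the deposited annotation, so the counts do not cover every listed gene. Among all tested features 26.7% were lower and 19.3% higher, and the part of transcript length and level in the list counts was not tested. The lists were assembled with earlier results of these data known, and the counts carry no test of the lists.

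**Figure D4:**
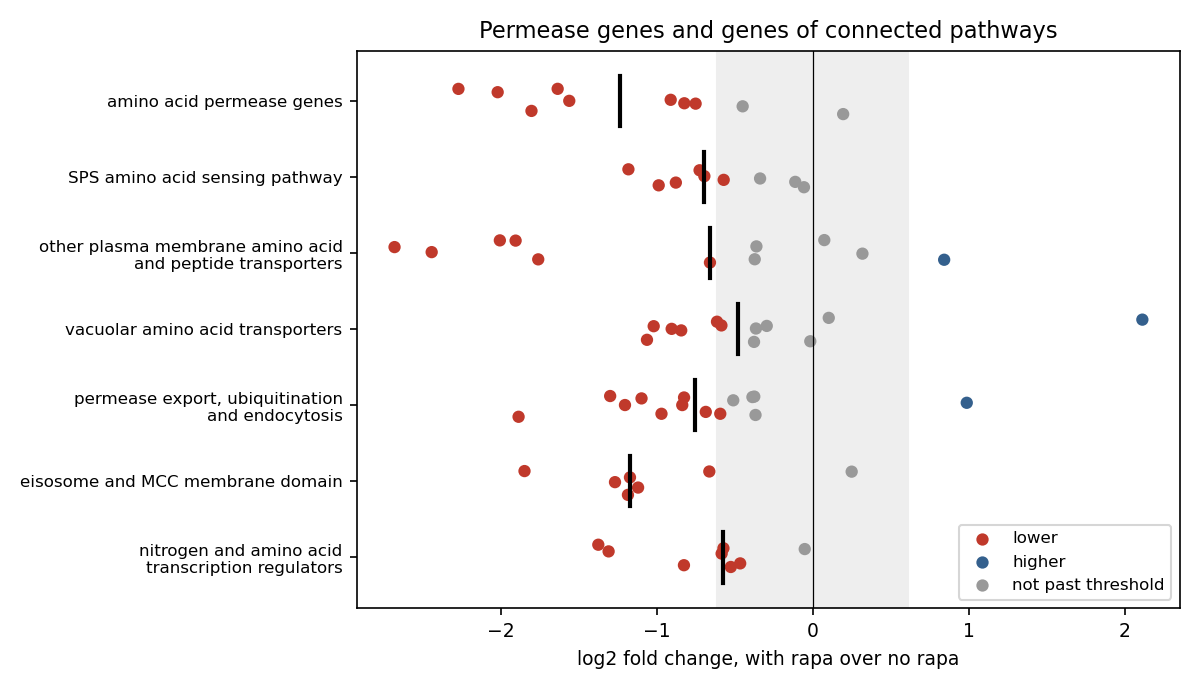
Log2 fold change with rapa over no rapa of the permease genes and of 6 lists of connected genes; each point is a gene, coloured by call, black bars are list medians and the grey band spans the quartiles of all tested features (-0.62 to 0.61). The medians of the permease genes (-1.24), the eisosome genes (-1.17), the export and endocytosis genes (-0.76), the SPS genes (-0.70) and the other plasma membrane transporters (-0.66) lie left of the band, and those of the regulators (-0.58) and the vacuolar transporters (-0.48) lie inside it.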

How the data were processed

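Labelled RNA was measured in 4 libraries of one strain, 2 with rapamycin and 2 without, grouped by their titles. The authors deposited raw read counts per transcript feature, with a transcript annotation. The builds R64 and sacCer3 and the tools HTSeq, SAMtools and STAR 2.3.0 are named in the submitters' processing notes, without roles. Alignment filters, strand setting and read length are not given in the sources used here. All 4842 reading frames matched by systematic name lay inside their deposited transcript on R64, so coordinates and sequence were read from that RefSeq genome.

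Reads outside every feature made up 50.45% and 49.95% with rapamycin, against 33.72% and 33.05% without it, and stayed out of library sizes and tests. Spike-ins were not analysed here. Replicates were no copies of each other (chi-square per degree of freedom of 65.7 with rapamycin and 80.4 without it). Counts were fitted in edgeR 4.0.16 (R 4.3.3) with TMM factors, default filterByExpr and the quasi-likelihood F-test of group, two-sided. The SE is the absolute log2 fold change over the square root of F. The common biological coefficient of variation was 19.8%. DESeq2 1.42.0 was an alternative, as were other scalings, no filter, open reading frames alone, a replicate block and leaving out each library. Code was tested on simulated data. Reading frames were aligned with Biopython 1.88.

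The permease genes and the 6 lists were chosen with earlier results of these data known. Genes named were the 10 permease genes, from each list the called genes with the smallest adjusted p (6 at most), SSY1, STP1, STP2, SHR3 and GAP1, overlapping or neighbouring features, and the 3 open reading frames nearest to the median permease profile. PIL1 was named after its value was seen.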

Additional observations from a re-analysis of the deposited data

How the results depend on the processing

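Of the 110 permease fold changes refitted under 11 alternatives, 106 kept their direction and side of the threshold, 3 newly passed and 1 no longer passed, and none changed sign. LYP1 lost its call without no rapa replicate 1. TAT1 passed as lower without with rapa replicate 1 and with the replicate block (-0.45, adjusted p = 0.018, edgeR). DIP5 passed as higher with upper-quartile factors (0.51, adjusted p = 0.0192, edgeR), or 0.23 above the median of all features on that scale. That setting gave 1 permease gene higher, and 25 list genes lower against 40. Permease genes called lower numbered 7 to 9 with 1 library left out, list genes called higher 2 to 5, list genes called lower 27 to 47, and all features called 1588 to 3312 against 2623, the low counts being 1588 without no rapa replicate 1 and 1685 without no rapa replicate 2. The 5 higher list genes came without with rapa replicate 2, and 2 with either no rapa library left out. With 1 library in a group, the lone library is assumed to vary like the remaining pair. STP1, uncalled throughout, changed sign with upper-quartile factors (0.20) and with open reading frames alone (0.011), and ran from -0.20 to 0.027 with 1 library left out. The cause was not tested. The replicate numbers are shared between groups, but the labels tie them to no batch and there are only 2 pairs (correlation of deviations 0.233). With the replicate block 9 permease genes, 41 list genes and 2970 features in all were called, the first 2 counts being of lower genes. The AGP1/GNP1 log2 ratio difference ran from 0.06 to 0.10 with 1 library left out, that of CAN1/LYP1 from -1.38 to -1.14. With at least 725 reads on each permease gene in each library, precision is set by the 2 libraries per group more than by depth.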

Other observations

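Vacuolar amino acid transporter genes, whose products move amino acids between cytosol and vacuole, were lower for 6 of 12 tested, against 26.7% of all tested features. In the same list 1 was higher and 5 did not pass, with a median log2 fold change of -0.48. AVT1, which takes neutral amino acids into the vacuole, measured 68.0 and 60.7 CPM with rapamycin, against 120 and 121 CPM without it (-0.90 ± 0.17, edgeR adjusted p = 0.000945). RTC2, which encodes a vacuolar PQ-loop transporter of basic amino acids, was the higher one at 13.2 and 11.6 CPM with rapamycin, against 2.72 and 2.99 CPM without it (2.11 ± 0.45, edgeR adjusted p = 0.00234). With upper-quartile factors 2 of the list were lower, and without no rapa replicate 1 the number was 3.

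The open reading frames nearest to the median permease profile over the 4 libraries were YDJ1, YEN1 and CMK1. The profile is log2 CPM centred on each gene's own mean, and their Euclidean distances from it were 0.0120, 0.0388 and 0.0410, against 0.293 for AGP1, the nearest permease gene, and 1.503 for DIP5, the farthest. With 4 libraries and a median taken over 10 genes, such nearness describes these libraries only. YDJ1, an Hsp40 co-chaperone gene, measured 962 and 745 CPM with rapamycin, against 2132 and 1959 CPM without it.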
